A study of Mus musculus with 16 samples.

Results

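The enzymes described here belong to 7 gene families that metabolise drugs, other foreign compounds, steroids, retinoids and bile acids: cytochrome P450 (Cyp), carboxylesterase (Ces), glutathione S-transferase (Gst), aldo-keto reductase (Akr), aldehyde dehydrogenase (Aldh), sulfotransferase (Sult) and UDP-glucuronosyltransferase (Ugt). Members were chosen by gene symbol, as all genes on the array whose symbol carries a family prefix, leaving out Cyp51 and Aldh18a1. This gave 194 of the 18850 named genes, each read by 1 probe set. A member was kept when its signal lay above the array's 40th percentile of all probe sets, a level between 6.40 and 6.56 on the log2 scale, on at least 4 of 16 arrays. The filter kept 102 members: 38 Cyp, 20 Gst, 16 Aldh, 11 Ces, 9 Akr, 6 Sult and 2 Ugt genes. Of the other 92 members, 87 lay above that level on no array. At the edge of the filter, Cyp24a1, Cyp46a1 and Sult1a1 passed it on exactly 4 arrays, while Sult2a1 passed on 3 and was left out, as were Aldh1l2, Cyp2c66, Cyp2c69 and Ugt2b36 with 1 array each. The filter kept 11766 genes of the whole array for testing.

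RNA was measured in mouse colon organoids, which are epithelial cultures grown from colon in ENR medium, on 16 Affymetrix arrays in 4 groups of 4. The groups were WT organoids, WT organoids given recombinant TNFa at 50 ng per ml for 12 h, and mutant organoids without and with the same treatment. The mutant carries altered Atf2 and Atf7 genes, which code for related transcription factors. The labels disagree on which gene is which: the genotype field reads ATF2 fl/fl / ATF7 KO, the description names ATF2 as the knockout and ATF7 as the floxed gene, and the title reads ATF2/7 fl. No label says whether a floxed allele had been recombined, by what Cre, or whether the 4 numbered samples of a group came from separate mice or cultures. The p-values therefore measure only the spread between these samples, which may be technical. Organoids hold a mixture of epithelial cells, and in such bulk RNA fewer cells of a type and less RNA per cell cannot be told apart.

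These families handle lipid-soluble compounds in steps. Cytochromes P450, carboxylesterases, aldehyde dehydrogenases and aldo-keto reductases oxidise, split or reduce a substrate, and glutathione S-transferases, sulfotransferases and glucuronosyltransferases attach a polar group that lets transporters export it. In intestine and liver many of these genes are switched on through the nuclear receptors CAR (Nr1i3) and PXR (Nr1i2), and inflammatory cytokines are known to lower many of them in liver.

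The Atf2 probe set gave a mean of 10.16 ± 0.14 (SD) in WT, 10.18 ± 0.02 in TNFa-treated WT, 10.15 ± 0.03 in untreated mutant and 10.12 ± 0.01 in treated mutant. The difference between the genotypes did not pass the test without TNFa (-0.02, adjusted p = 0.942), where the arrays overlapped, or with TNFa (-0.06, adjusted p = 0.729), where all 4 mutant arrays lay below the 4 WT arrays. Which part of the transcript the probe set reads was not given, and no named probe set for Atf7 was used here. All 16 colon epithelium marker genes looked up lay above the 40th percentile on all arrays; with TNFa in WT Car4 rose 1.60-fold and Muc2 fell 1.19-fold, and Cdx2 was 1.44-fold lower in mutant without TNFa. Of 14 fibroblast, immune and endothelial markers, 10 lay above it on no array, and their mean level stayed between 5.77 and 5.97 on all arrays. Among them Lyz2, a lysozyme gene, fell with TNFa in WT by 0.74 on the log2 scale and was 1.25 higher in mutant than in WT with TNFa. Of 12 small intestine and liver markers, 7 lay above the percentile on all arrays, and their mean level went from 7.32 in WT to 7.16 with TNFa, and from 7.22 in the untreated mutant to 7.07 with TNFa. Among these Alb fell with TNFa in mutant, and Apob was lower in mutant than in WT, 1.55-fold without and 1.54-fold with TNFa. The part of these markers in the results below was not tested. The second WT array with TNFa stood apart, with a mean correlation of 0.977 to the rest of its group against 0.986 to 0.988 for the other arrays of that group. Counts without it are given beside the results.

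With TNFa many of these enzymes fell in both genotypes and very few rose. In WT organoids 49 of the 102 members fell and 2 rose at an adjusted p under 0.05, where 5.75% of all genes tested fell and 5.03% rose. The median change was -0.27 on the log2 scale over the members and 0.01 over all genes, and 82 of 102 members had a negative change. Read without any filter, 51 of all 194 members fell, against 2.79% of all genes. Of the 82 members above the 40th percentile on all arrays, 42 fell, against 5.90% of all such genes. In 52 members every TNFa array of WT lay below every untreated array, against 7.34% of all genes. Without the second WT array with TNFa, 57 members were called in place of 51, and all 51 were among them. Of the 57, 52 fell and 5 rose, and calls over all genes went from 1269 to 1430.

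In mutant organoids 40 of 102 members fell and 3 rose, where 2.47% of all genes tested fell and 3.51% rose. The median change over the members was -0.19. Read without a filter, 38 of 194 fell, against 1.14% of all genes, and of the 82 members above the percentile on all arrays 35 fell, against 2.37%. The TNFa and untreated arrays of the mutant did not overlap, with TNFa lower, for 48 members, against 5.98% of all genes. The members that fell in both genotypes numbered 36, which is 73.5% of those that fell in WT and 90% of those that fell in mutant. The 13 that passed the test in WT alone were Aldh1b1, Aldh1l1, Cyp27a1, Cyp2s1, Cyp39a1, Cyp4f18, Cyp4f40, Gstm2, Gstm4, Gstm7, Gstt2, Gstt3 and Sult1d1, and the 4 that passed in mutant alone were Akr7a5, Cyp2d22, Cyp2j6 and Gsta2. Without the second WT array with TNFa, 47 members were called in mutant in place of 43, with Cyp27a1, Cyp2u1, Cyp4f18 and Gsto1 gained. Cyp27a1 and Cyp4f18 then passed in both genotypes. Calls over all genes in mutant went from 704 to 900. Passing in one genotype and not in the other is no test of a difference, and the test of the difference itself, given further down, was passed by no member.

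**Figure D1:**
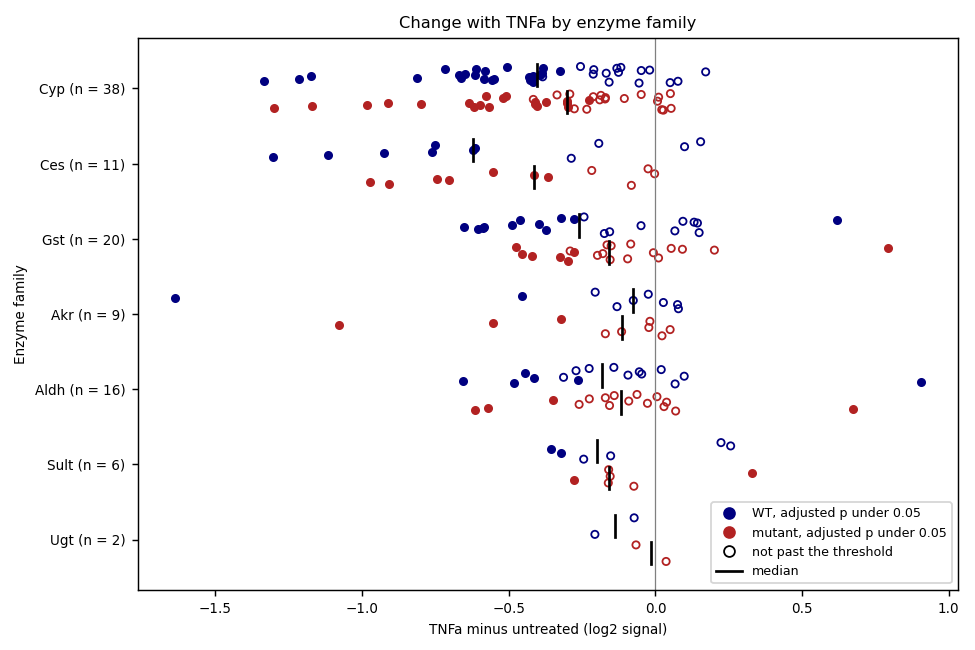
Change with TNFa (x axis, TNFa minus untreated, log2 signal) of each of the 102 members, by enzyme family, in WT (navy) and mutant (dark red). Filled points passed an adjusted p of 0.05, open points did not, and black bars are family medians; the Ces and Cyp medians lie furthest to the left, at -0.62 and -0.41 in WT and -0.42 and -0.30 in mutant.

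The counts that fell are given by family. Of all genes tested, 5.75% fell and 5.03% rose in WT, and 2.47% fell and 3.51% rose in mutant. Among the cytochromes P450, 23 of 38 members fell in WT and 20 in mutant, with medians of -0.41 and -0.30, and none rose. Among the carboxylesterases, 7 of 11 fell in each genotype, with medians of -0.62 and -0.42. Of the glutathione S-transferases, 10 of 20 fell and 1 rose in WT, and 6 fell and 1 rose in mutant. Of the aldehyde dehydrogenases, 5 of 16 fell and 1 rose in WT, and 3 fell and 1 rose in mutant. Of the aldo-keto reductases, 2 of 9 fell in WT and 3 in mutant. Of the sulfotransferases, 2 of 6 fell in WT, and 1 fell and 1 rose in mutant. Neither of the 2 glucuronosyltransferases kept, Ugt2b34 and Ugt2b35, passed the test in either genotype. The 11 Ugt genes listed were of the Ugt2a, Ugt2b, Ugt3a and Ugt8a groups. No Ugt1a gene was among them, so Ugt1a enzymes are not covered here. The differences between families were not tested.

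Cyp2b10 is the P450 best known as a target of CAR. Its 4 WT arrays read 6.92, 7.32, 7.46 and 7.65, and the 4 with TNFa read 6.14, 5.84, 5.84 and 6.20. The mutant arrays read 7.16, 7.26, 6.78 and 6.80, and those with TNFa read 5.58, 5.51, 5.49 and 6.22. All 8 untreated arrays lay above the 40th percentile and none of the 8 TNFa arrays did, so it passed the filter through the untreated groups only. The change was -1.34 ± 0.17 (SE) in WT (adjusted p = 5.3e-05) and -1.30 ± 0.17 in mutant (adjusted p = 9.91e-05). Since the treated arrays lay at such dim levels, the corresponding sizes of 2.52-fold and 2.46-fold are approximate. With no filter on signal, the adjusted p was 0.00011 in WT and 0.00019 in mutant.

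The Cyp2c genes make enzymes that oxidise drugs, arachidonic acid and, for Cyp2c70, bile acids, which it turns into muricholic acids in mouse. All 5 Cyp2c members kept, of 14 on the array, fell in both genotypes, with medians of -0.56 in WT and -0.57 in mutant. Whether related Cyp2c sequences share signal on the array was not tested. Cyp2c70 read 6.92, 7.00, 7.11 and 7.44 in WT and 6.33, 6.12, 5.62 and 5.55 with TNFa. The mutant read 6.94, 6.83, 6.61 and 6.73, and 5.74, 5.32, 5.92 and 5.46 with TNFa. Like Cyp2b10 it lay above the 40th percentile on the 8 untreated arrays only, and the changes were -1.21 ± 0.17 (SE, adjusted p = 9.24e-05) in WT and -1.17 ± 0.17 (adjusted p = 0.000192) in mutant. These sizes are approximate for the same reason, and with no filter the adjusted p was 0.00018 and 0.000375. Cyp2c55, a colon P450 that hydroxylates arachidonic acid, changed by less: it read 12.05, 12.12, 12.21 and 12.05 in WT and 11.71, 11.54, 11.72 and 11.75 with TNFa. The mutant arrays read 12.23, 12.22, 12.13 and 12.16, and 11.88, 11.88, 11.91 and 11.87 with TNFa. The groups did not overlap in either genotype, and the changes were -0.43 ± 0.06 (adjusted p = 7.3e-05) and -0.30 ± 0.06 (adjusted p = 0.00299). Cyp2c68 fell by 0.55 in WT and by 0.40 in mutant.

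The 5 Cyp2c members lie in 1 run of neighbouring genes on chromosome 19, from Cyp2c55 to Cyp2c70. Their promoters are shown for the genes at its ends, as the smallest and the largest fall of the run in WT, in the 250 bases before the start that RefSeq lists for build GRCm38.p6. Cyp2c55 is read at chr19:39006769-39007018 (plus strand) and Cyp2c70 at chr19:40187287-40187536 (minus strand). Here and in the later promoters, capitals mark matches on either strand to the TATA box (TATAAA), the nuclear receptor core sequences AGGTCA and TGAACT, the AP-1 site (TGANTCA) and the core of the antioxidant response element (TGACNNNGC), whose letters can overlap with those of AP-1 sites.
Cyp2c55: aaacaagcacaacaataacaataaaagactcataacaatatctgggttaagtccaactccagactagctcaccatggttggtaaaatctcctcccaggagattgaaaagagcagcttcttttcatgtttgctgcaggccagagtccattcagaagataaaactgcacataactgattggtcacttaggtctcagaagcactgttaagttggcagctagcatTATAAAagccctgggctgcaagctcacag
Cyp2c70: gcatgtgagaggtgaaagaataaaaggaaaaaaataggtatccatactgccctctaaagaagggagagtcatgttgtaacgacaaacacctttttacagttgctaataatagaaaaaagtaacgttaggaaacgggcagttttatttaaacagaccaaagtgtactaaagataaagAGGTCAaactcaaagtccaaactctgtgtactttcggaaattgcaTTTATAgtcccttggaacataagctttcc
Both hold TATAAA letters 29 bases before the start, on the opposite strand in Cyp2c70, which also holds AGGTCA at 74 bases before it. Of the 102 members, 83 had a promoter in the table, and 14 of them held TATAAA, or 16.9%, against 13.0% of all 27025 genes listed. Among the 39 with a promoter that fell in WT, 10 held it, or 25.6%. They include Cyp2c55, Cyp2c65, Cyp2c67, Cyp2c70, Cyp2d9, Cyp2d10, Cyp2d26 and Cyp2d40, which are sets of related neighbours and not independent. The letters were counted anywhere in the 250 bases. In Aldh1a7, Gstm7, Cyp2c65 and Cyp2d40 they stood at 244, 231, 162 and 91 bases before the start, far from the position in Cyp2c55. AGGTCA stood in 11 of the 83 (13.3%, against 13.8% of all genes) and in 12.8% of the 39, and TGAACT in 10 (12.0%, against 11.9%) and in 7.69% of the 39. A further 3 motifs were searched and are not capitalised: the NF-kB site (by its outer G and C letters), the CREB/ATF core TGACG and the AHR core GCGTG. The NF-kB letters stood in 53.0% of the 83 and 48.7% of the 39, against 45.4% of all genes. TGACG stood in 8.43% and 2.56%, against 17.9%, and GCGTG in 22.9% and 15.4%, against 28.2%. These matches describe the windows and show no binding.

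Cyp2d genes code for enzymes that oxidise basic drugs. Of 9 Cyp2d members, all kept, 8 fell in WT and 9 in mutant. Near-identical sequences in this group can share array signal, so the 9 probe sets may not be independent, and Cyp2d37-ps is listed as a pseudogene. Cyp2d26 had the largest fall in WT: it read 11.34, 11.48, 11.81 and 11.78 without and 10.46, 10.77, 10.12 and 10.37 with TNFa. Mutant organoids read 11.27, 11.06, 11.05 and 11.23 without and 10.12, 10.20, 10.26 and 10.38 with TNFa. No TNFa array reached an untreated one, and the fall was 2.26-fold in WT (-1.17 ± 0.12, SE, adjusted p = 5.35e-06) and 1.88-fold in mutant (-0.91 ± 0.12, adjusted p = 0.00011). Cyp2d12 fell 1.76-fold in WT and 1.98-fold in mutant, and Cyp2d34 fell 1.33-fold and 1.23-fold. The exception in WT was Cyp2d22, with a change of -0.38 ± 0.14 (adjusted p = 0.0921). Its change in mutant was -0.80 ± 0.14 (adjusted p = 0.00139), from an untreated level that differed between the genotypes, as described below. Cyp2d22 stands at the end of the run of 7 kept Cyp2d genes on chromosome 15, which runs to Cyp2d26.

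Of 7 Cyp4f members, whose enzymes hydroxylate fatty acids and leukotrienes, 4 fell in WT and 2 in mutant. The lone Cyp3a member kept of 9 on the array was Cyp3a13, a drug-oxidising P450 of mouse intestine. It was singled out after its values were seen, for its narrow groups: WT read 10.30, 10.33, 10.42 and 10.48 and, with TNFa, 9.96, 9.77, 9.70 and 9.77. Mutant read 10.47, 10.46, 10.45 and 10.47 and, with TNFa, 9.88, 9.94, 9.98 and 9.97. The change was -0.58 ± 0.06 (SE, adjusted p = 4.53e-06) in WT and -0.52 ± 0.06 (adjusted p = 1.98e-05) in mutant. Many P450 genes typical of liver or of steroid-producing glands, among them Cyp1a2, Cyp3a11, Cyp7a1, Cyp8b1, Cyp11a1 and Cyp17a1, did not pass the filter.

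**Figure D2:**
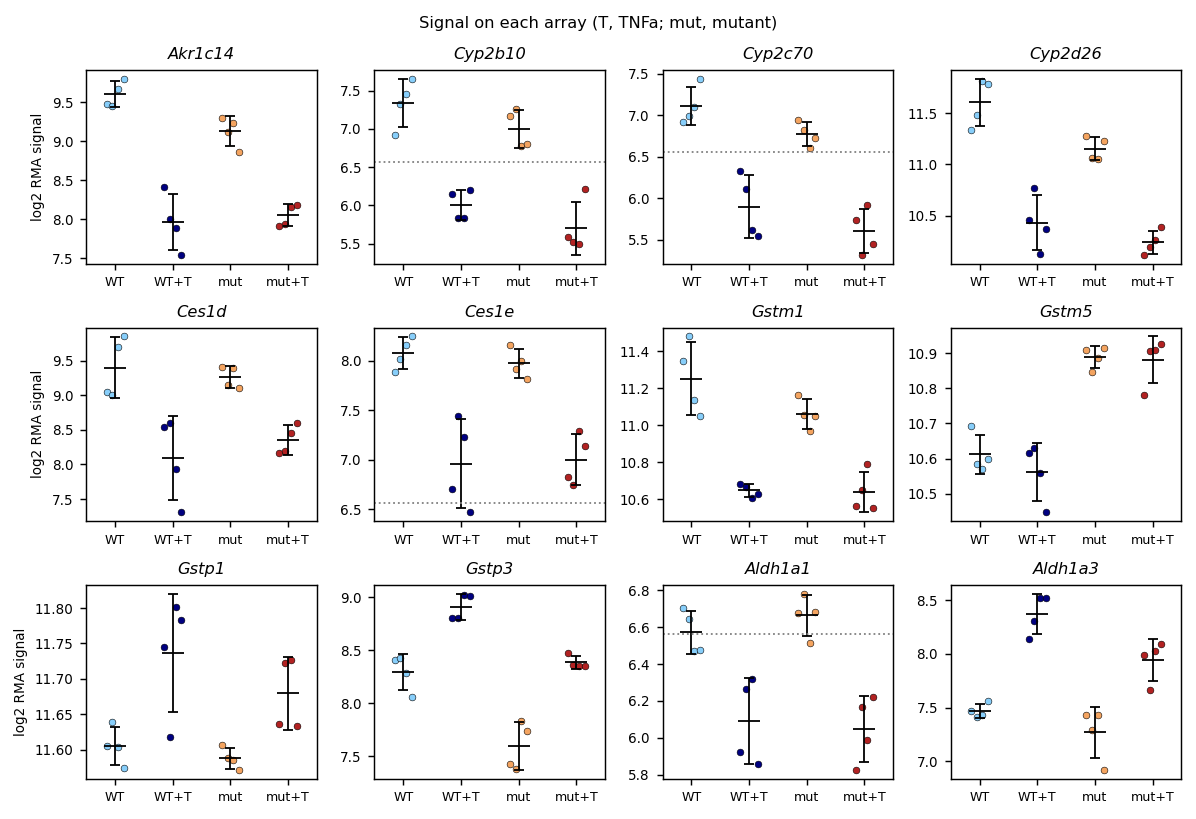
Log2 RMA signal on each array (y axis) of 12 members in the 4 groups, with points for arrays and bars for the mean ± SD of 4. The dotted line is the highest 40th percentile of an array, 6.56. The TNFa points of Akr1c14, Cyp2b10, Cyp2c70, Cyp2d26, Ces1d, Ces1e, Gstm1 and Aldh1a1 lie below all untreated points of the same genotype, those of Gstp3 and Aldh1a3 lie above, those of Gstm5 overlap with them, and those of Gstp1 overlap with them in WT.

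Carboxylesterases split ester drugs and lipid esters. Ces1d, which also acts as a triacylglycerol hydrolase, fell 2.47-fold in WT. Its WT arrays read 9.05, 9.00, 9.69 and 9.85, and 8.53, 8.60, 7.93 and 7.31 with TNFa. The mutant arrays read 9.41, 9.15, 9.39 and 9.10, and 8.16, 8.19, 8.46 and 8.60 with TNFa. The groups did not overlap, but the WT arrays spread widely: the change was -1.30 ± 0.24 (SE, adjusted p = 0.0015) in WT and -0.91 ± 0.24 (adjusted p = 0.0306) in mutant. The mutant call was lost, with adjusted p up to 0.0976, under 9 of 26 alternatives, 6 of which left out the first, the second or the third array of either mutant group.

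Ces1e fell from 7.89, 8.02, 8.16 and 8.25 in WT to 6.70, 7.44, 7.23 and 6.47 with TNFa, a change of -1.12 ± 0.17 (SE, adjusted p = 0.000316). In mutant it fell from 8.16, 7.91, 8.00 and 7.82 to 6.83, 6.75, 7.29 and 7.13, a change of -0.97 ± 0.17 (adjusted p = 0.00163). Ces1f fell by 0.93 in WT and by 0.70 in mutant. Ces1c, the remaining kept member of the Ces1 group, changed by -0.29 in WT (adjusted p = 0.106) and by -0.08 in mutant (adjusted p = 0.837).

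In the Ces2 group, whose enzymes act on esters with small acyl groups and are abundant in intestine, 4 of 6 members fell in both genotypes: Ces2a, Ces2b, Ces2e and Ces2g. Ces2g read 9.15, 9.31, 9.24 and 9.17 in WT and 8.55, 8.39, 8.52 and 8.40 with TNFa. The signal in mutant was 9.06, 9.17, 9.09 and 9.05, and 8.50, 8.44, 8.60 and 8.61 with TNFa. With these narrow groups its adjusted p was 2.63e-07 in WT, for a 1.68-fold fall, and 9.87e-06 in mutant, for a 1.47-fold fall. Ces2a fell 1.69-fold in WT and 1.68-fold in mutant. Ces2f and Ces2h, which neighbour them on chromosome 8, did not pass the test in WT; Ces2f changed by 0.10 there.

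Akr1c14 had the largest fall of all 102 members in WT. It codes for a hydroxysteroid dehydrogenase, an enzyme that reduces steroid hormones. The WT arrays read 9.48, 9.45, 9.67 and 9.80, and 8.41, 8.01, 7.89 and 7.55 with TNFa. The mutant arrays read 9.30, 9.12, 9.24 and 8.86, and 7.92, 7.94, 8.16 and 8.18 with TNFa. All TNFa arrays lay below all untreated arrays, and the fall was 3.11-fold in WT (-1.64 ± 0.14, SE, adjusted p = 7.12e-07) and 2.11-fold in mutant (-1.08 ± 0.14, adjusted p = 9.91e-05). Its neighbour in the same run on chromosome 13, Akr1c19, fell 1.37-fold in WT and 1.47-fold in mutant. The other 3 kept genes of that run, Akr1c13, Akr1c12 and Akr1e1, did not pass the test in either genotype. Akr1a1, an aldehyde reductase with a broad range of substrates, changed by 0.08 in WT (95% confidence interval -0.03 to 0.18) and by 0.02 in mutant (-0.08 to 0.13). The promoter of Akr1c14, at chr13:4059341-4059590 (plus strand), is shown because the gene leads the fall.
Akr1c14: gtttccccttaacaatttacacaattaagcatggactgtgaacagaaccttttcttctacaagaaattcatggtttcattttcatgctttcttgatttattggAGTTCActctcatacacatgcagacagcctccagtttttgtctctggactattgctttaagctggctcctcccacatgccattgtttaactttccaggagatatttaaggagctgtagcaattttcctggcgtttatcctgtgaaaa
It held none of the letters searched for an AP-1 site, an antioxidant response element or a TATA box, and held TGAACT on the opposite strand at 147 bases before the start.

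Glutathione S-transferases join glutathione to reactive compounds. The mu class (Gstm) is encoded by a run of 7 neighbouring genes on chromosome 3, all of them kept. In WT 6 of the 7 fell, between -0.65 and -0.49 for Gstm3, Gstm1, Gstm2, Gstm4 and Gstm6, and Gstm5 did not pass the test. In mutant 3 fell: Gstm1, Gstm3 and Gstm6. Near-identical mu class sequences may share signal on the array.

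Gstm3 read 9.82, 10.13, 9.81 and 9.68 in WT, and 9.19, 9.14, 9.27 and 9.23 with TNFa. In mutant it read 9.89, 9.68, 9.66 and 9.71, and 9.20, 9.28, 9.34 and 9.30 with TNFa. The groups did not overlap in either genotype, and the changes were -0.65 ± 0.08 (SE, adjusted p = 3.03e-05) and -0.45 ± 0.08 (adjusted p = 0.00155). Gstm1, described because its promoter is set beside that of Gstm5, read 11.35, 11.48, 11.14 and 11.05 in WT and 10.69, 10.67, 10.61 and 10.63 with TNFa. It fell 1.52-fold there (adjusted p = 9.45e-05) and 1.34-fold in mutant (adjusted p = 0.00376).

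Gstm5, at the end of the same run, read 10.69, 10.59, 10.57 and 10.60 in WT and 10.61, 10.63, 10.56 and 10.45 with TNFa. The mutant read 10.91, 10.85, 10.89 and 10.91, and 10.78, 10.91, 10.91 and 10.93 with TNFa. Treated and untreated arrays overlapped, and the 95% confidence interval of the change was -0.17 to 0.07 in WT and -0.12 to 0.11 in mutant. These intervals lie apart from those of Gstm3 (-0.82 to -0.48 in WT and -0.62 to -0.28 in mutant), although a test between genes was not run. Gstm3 had the largest fall of the 7 in each genotype. In mutant Gstm5 was 1 of 4 that did not pass the test, and Gstm2, another, changed by -0.20 there (adjusted p = 0.117). The promoters of Gstm1, at chr3:108017974-108018223 (minus strand), and Gstm5, at chr3:107895604-107895853 (plus strand), are shown. They set a member that fell in both genotypes beside one that passed the test in neither.
Gstm1: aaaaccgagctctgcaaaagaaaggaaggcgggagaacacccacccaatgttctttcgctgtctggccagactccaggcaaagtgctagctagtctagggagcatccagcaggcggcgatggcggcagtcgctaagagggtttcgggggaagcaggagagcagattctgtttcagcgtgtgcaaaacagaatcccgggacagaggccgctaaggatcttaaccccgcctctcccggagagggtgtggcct
Gstm5: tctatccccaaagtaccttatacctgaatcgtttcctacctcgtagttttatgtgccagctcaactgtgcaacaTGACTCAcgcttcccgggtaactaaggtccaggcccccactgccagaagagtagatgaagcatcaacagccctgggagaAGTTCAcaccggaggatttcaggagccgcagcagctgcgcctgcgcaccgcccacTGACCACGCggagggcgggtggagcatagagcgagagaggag
The Gstm5 window held an AP-1 site, TGACTCA, at 176 bases before the start, and an antioxidant response core, TGACCACGC, at 42 bases before it. The Gstm1 window, for the first of 2 starts listed, held neither. The antioxidant response core stood in 4 of the 83 member promoters (4.82%, against 10.2% of all genes) and in 2.56% of the 39 that fell in WT. AP-1 letters stood in 9 of the 83 (10.8%, against 6.87%) and in 7.69% of the 39.

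The pi class (Gstp) consists of 3 neighbours on chromosome 19. Gstp1 and Gstp2, the main pi class enzymes, did not pass the test with TNFa. Gstp1 changed by 0.13 in WT (95% confidence interval 0.02 to 0.24, adjusted p = 0.123) and by 0.09 in mutant (-0.02 to 0.20, adjusted p = 0.439). The WT rise of Gstp1 was called under 3 of 26 alternatives, among them that without the second WT array with TNFa. The change of Gstp2 was 0.09 in WT (-0.03 to 0.21) and 0.05 in mutant (-0.07 to 0.17). Whether Gstp1 and Gstp2 share signal on the array was not tested. Gstp3 rose: it read 8.40, 8.43, 8.28 and 8.06 in WT and 8.81, 8.81, 9.02 and 9.01 with TNFa. The mutant arrays read 7.42, 7.38, 7.83 and 7.74, and 8.47, 8.36, 8.35 and 8.35 with TNFa. The rise was 1.53-fold in WT (0.62 ± 0.10, SE, adjusted p = 0.00055) and 1.73-fold in mutant (0.79 ± 0.10, adjusted p = 6.57e-05), with no overlap. The promoters of the 3 genes are printed to compare a member that rose with its neighbours; they lie at chr19:4037913-4038162 (minus strand), chr19:4042222-4042471 (minus strand) and chr19:4059448-4059697 (minus strand).
Gstp1: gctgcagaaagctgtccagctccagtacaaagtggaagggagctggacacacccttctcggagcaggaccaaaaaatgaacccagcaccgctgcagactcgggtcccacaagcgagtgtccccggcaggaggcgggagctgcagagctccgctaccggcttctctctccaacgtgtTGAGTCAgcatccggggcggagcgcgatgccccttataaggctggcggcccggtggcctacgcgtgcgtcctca
Gstp2: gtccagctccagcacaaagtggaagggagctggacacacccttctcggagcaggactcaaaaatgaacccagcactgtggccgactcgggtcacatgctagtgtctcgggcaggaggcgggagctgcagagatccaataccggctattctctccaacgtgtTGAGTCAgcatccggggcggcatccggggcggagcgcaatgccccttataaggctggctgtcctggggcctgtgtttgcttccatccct
Gstp3: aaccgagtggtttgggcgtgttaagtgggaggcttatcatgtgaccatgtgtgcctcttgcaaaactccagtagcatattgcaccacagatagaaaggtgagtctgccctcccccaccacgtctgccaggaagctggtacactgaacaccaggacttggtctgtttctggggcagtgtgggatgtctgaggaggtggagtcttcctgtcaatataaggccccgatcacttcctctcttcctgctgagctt
Gstp1 and Gstp2 carry the AP-1 letters TGAGTCA at 74 and 89 bases before the start, in closely similar surroundings, while the Gstp3 window holds none of the letters marked in capitals; of the others searched it holds the AHR core, at 235 bases before the start.

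Of the other transferase classes, all 3 kept theta class genes (Gstt1, Gstt2 and Gstt3) fell in WT, and Gstt1 alone passed the test in mutant. Gstt1 fell 1.38-fold in WT and 1.39-fold in mutant. Gstk1, the mitochondrial and peroxisomal kappa class enzyme, fell 1.30-fold and 1.25-fold, and the mutant call was lost under 4 of 26 alternatives. Of the 3 alpha class genes, none fell in WT and Gsta2 fell in mutant (-0.30, adjusted p = 0.0118, against -0.17 and 0.123 in WT).

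Aldehyde dehydrogenases oxidise aldehydes to acids, and the Aldh1a enzymes make retinoic acid from retinal. The 3 Aldh1a members kept moved in different directions with TNFa. Aldh1a1 read 6.70, 6.64, 6.47 and 6.48 in WT, and 5.92, 6.27, 6.32 and 5.86 with TNFa. Mutant organoids read 6.68, 6.78, 6.52 and 6.68, and 5.83, 6.17, 5.99 and 6.22 with TNFa. It lay above the 40th percentile on 7 arrays, all untreated, and fell by 0.48 ± 0.11 (SE, adjusted p = 0.0072) in WT and by 0.61 ± 0.11 (adjusted p = 0.00156) in mutant. It too passed the filter through the untreated groups only, so these sizes are approximate; with no filter the adjusted p was 0.0147 and 0.00342.

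Aldh1a3 rose, from 7.47, 7.41, 7.43 and 7.56 in WT to 8.13, 8.31, 8.52 and 8.51 with TNFa. In mutant it rose from 7.43, 7.29, 7.43 and 6.92 to 7.99, 7.66, 8.02 and 8.09. It had the largest rise of the 102 members in WT, 1.87-fold (0.90 ± 0.12, SE, adjusted p = 5.3e-05), and rose 1.59-fold in mutant (adjusted p = 0.00137). Aldh1a7, a close relative of Aldh1a1 that oxidises other aldehydes, fell by 0.66 in WT and by 0.57 in mutant. Aldh2 and Aldh9a1, the mitochondrial acetaldehyde enzyme and an aminoaldehyde enzyme, did not pass the test in either genotype; Aldh2 changed by -0.31 in WT (adjusted p = 0.0964) and by -0.26 in mutant (adjusted p = 0.268), and Aldh9a1 by -0.14 (adjusted p = 0.13) and -0.06 (adjusted p = 0.708).

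Sulfotransferases attach sulfate to phenols, steroids and other alcohols. Sult2b1, a cholesterol sulfotransferase, read 9.08, 8.96, 8.77 and 8.93 in mutant and 9.19, 9.35, 9.23 and 9.28 with TNFa. The change there was 0.33 ± 0.08 (SE, adjusted p = 0.0234), and in WT it was 0.26 ± 0.08 (adjusted p = 0.0581), so that it passed the test in mutant alone, a call lost under 6 of 26 alternatives. Sult1d1, which acts on amines and phenols, fell by 0.36 in WT (adjusted p = 0.00677) and changed by -0.15 in mutant (adjusted p = 0.382). Sult1b1, a thyroid hormone and phenol sulfotransferase, changed by -0.15 in WT (adjusted p = 0.103) and by -0.16 in mutant (adjusted p = 0.131). Of the glucuronosyltransferases, Ugt2b34 changed by -0.21 in WT (adjusted p = 0.0548) and by 0.04 in mutant (adjusted p = 0.897), and Ugt2b35 by -0.07 in each (adjusted p = 0.627 and 0.803). The WT change of Ugt2b34 was called under 6 of 26 alternatives.

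Whether TNFa acted on these enzymes differently in the mutant was tested as the difference of the TNFa effects. No member passed it in limma, and 1 of all 11766 genes did (0.00850%). The smallest adjusted p among members was 0.324, for Gstm2. On simulated data with 200 genes changed by the same size, this test recovered 52% of differences of 0.5 log2 and 8% of those of 0.3. Most small differences would thus be missed. With fewer changed genes the adjustment is stricter, so recovery here may have been lower. At an unadjusted p under 0.05, 12 members of 102 differed, against 7.27% of all genes. A difference above 0 means a higher TNFa change in mutant than in WT. It was above 0 in 10 of the 12 (9.8% of members, against 4.48% of all genes) and below 0 in 2 (1.96%, against 2.79%). Over all 102 members the difference was below 0 in 34, against 48.0% of all genes, and its median was 0.05, against 0.007. Of the 49 members that fell in WT, 48 had a negative change in mutant as well, and the difference was above 0 in 44 of the 49. The 49 were picked for their fall in WT, so these counts and the medians, -0.58 in WT and -0.41 in mutant, are a description with no test. Gstm2 fell by 0.59 in WT and changed by -0.20 in mutant, a difference of 0.39 ± 0.10 (SE). For Akr1c14 the difference was 0.56 ± 0.20, with a 95% confidence interval of 0.13 to 0.99 and an adjusted p of 0.561. For Cyp2b10 the interval was -0.48 to 0.55 and for Cyp2c70 -0.45 to 0.54.

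**Figure D3:**
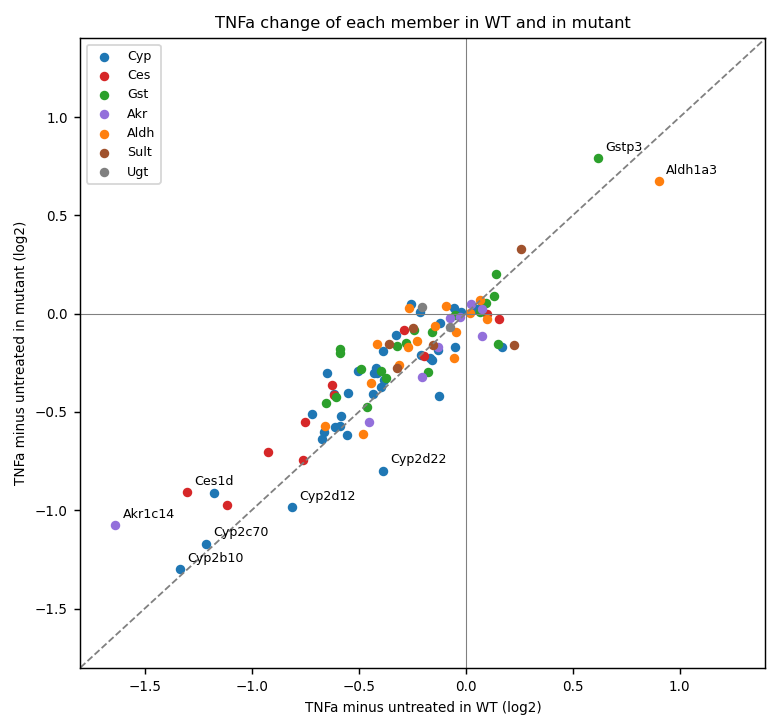
TNFa change of each of the 102 members in WT (x axis) and in mutant (y axis), both as TNFa minus untreated on the log2 scale, coloured by family, with the dashed line where both are equal. Cyp2b10 and Cyp2c70 lie near the line, Akr1c14 above it (-1.64 in WT and -1.08 in mutant) and Cyp2d22 below it (-0.38 and -0.80), and no member's distance from it passed the test.

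Fewer members differed between the genotypes. Without TNFa, 5 members were higher in mutant than in WT (1.00% of all genes were) and 5 were lower (1.48% of all genes were). With TNFa, 5 were higher (1.56%) and 4 were lower (1.13%). The median difference over the members was -0.05 without and 0.00 with TNFa. Members higher in both states numbered 2, Cyp27a1 and Gstm5, which is 40% of either list. Members lower in both also numbered 2, Gstk1 and Gstp3, which is 40% of those lower without and 50% of those lower with TNFa. All directions here rest on the genotype labels, between which the Atf2 signal did not pass the test in either state. Leaving out the second WT array with TNFa gave 15 calls in place of 10 without TNFa, and 7 in place of 9 with TNFa. In the latter, Cyp2d12, Gstk1 and Gstt1 were lost and Akr1c19 was gained. Calls over all genes went from 292 to 435 without TNFa and from 317 to 340 with TNFa. Without TNFa, leaving out the second WT array gave 5 calls, and leaving out the third or the fourth array of either untreated group gave 6. With TNFa, leaving out the second array of the treated mutant gave 4 calls and the fourth gave 5.

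Gstp3 had the largest difference downward without TNFa. From the values above, its untreated mutant arrays, 7.38 to 7.83, all lay below its untreated WT arrays, 8.06 to 8.43. The difference was -0.70 ± 0.10 (SE, adjusted p = 0.000572) without and -0.53 ± 0.10 (adjusted p = 0.00795) with TNFa, and its neighbours Gstp1 and Gstp2 did not pass the test in either state. Gstk1 read 9.72, 9.71, 9.60 and 9.54 in WT and 9.32, 9.28, 9.23 and 9.18 in mutant, and it was lower there by 0.39 in size, 1.31-fold (adjusted p = 0.0122). With TNFa it was 1.27-fold lower (adjusted p = 0.0297), a call lost under 7 of 26 alternatives, 5 of which left out the first or the second array of either TNFa group or the fourth of mutant with TNFa.

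Gstm5 was 1.21-fold higher in mutant without TNFa (0.28 ± 0.06, SE, adjusted p = 0.0094) and 1.25-fold higher with TNFa (0.32 ± 0.06, adjusted p = 0.00329), with no overlap between genotypes in either state. Of its neighbours, Gstm2 and Gstm6 were lower in mutant without TNFa, by -0.31 (adjusted p = 0.0189) and -0.27 (adjusted p = 0.0317). Both calls were lost under some alternatives, with adjusted p up to 0.0635 and 0.1. With TNFa, Gstm2 differed by 0.08 (adjusted p = 0.651) and Gstm6 by -0.06 (adjusted p = 0.732).

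Cyp2d22 had the largest difference upward without TNFa. It read 7.76, 8.08, 8.24 and 8.31 in WT and 9.08, 8.68, 8.83 and 9.13 in mutant, which is 1.78-fold higher (0.83 ± 0.14, SE, adjusted p = 0.00221). With TNFa the arrays read 7.45, 7.89, 7.53 and 7.99 in WT and 8.10, 8.25, 7.94 and 8.23 in mutant, where the difference was 0.42 ± 0.14 (adjusted p = 0.151) and the groups overlapped. Its relatives in the Cyp2d run did not follow: Cyp2d26 differed by -0.45 (adjusted p = 0.066) and Cyp2d12 by -0.45 (adjusted p = 0.15) without TNFa. Cyp2d12 was lower in mutant with TNFa, by -0.62 (adjusted p = 0.0308), a call lost under 7 of 26 alternatives, 4 of which left out the first or the second array of either TNFa group.

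Cyp27a1 codes for a mitochondrial sterol hydroxylase, which opens a route of bile acid synthesis. It read 7.47, 7.53, 7.56 and 7.38 in WT and 8.04, 8.07, 8.02 and 7.83 in mutant, a difference of 0.50 ± 0.13 (SE, adjusted p = 0.0444). With TNFa it read 7.24, 6.52, 7.23 and 7.28 in WT and 7.62, 7.84, 7.65 and 7.73 in mutant, a difference of 0.65 ± 0.13 (adjusted p = 0.00917). The groups did not overlap in either state. With TNFa it fell in WT by 0.42 (adjusted p = 0.0437), a call lost under 15 of 26 alternatives. The low value of 6.52 came from the second WT array with TNFa, and without that array the change was -0.24 in WT (adjusted p = 0.0366) and -0.28 in mutant (adjusted p = 0.0126, against 0.297 with it). The genotype call without TNFa was lost under 16 of 26 alternatives, with adjusted p up to 0.135.

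Akr1c19 read 11.02, 10.98, 10.87 and 10.86 in WT and 11.28, 11.38, 11.38 and 11.39 in mutant, 1.34-fold higher (0.42 ± 0.09, SE, adjusted p = 0.00996). With TNFa the difference was 0.33 ± 0.09 (adjusted p = 0.0518). Akr1c14 differed the other way, by -0.47 ± 0.14 without TNFa, which did not pass the test (adjusted p = 0.108). Sult5a1, near the filter level, was 0.39 higher without TNFa (adjusted p = 0.0382) and Ces2e was lower, by -0.41 (adjusted p = 0.0271). With TNFa, Ces1c was 1.37-fold higher (adjusted p = 0.03), Cyp2c68 1.35-fold (adjusted p = 0.00434) and Aldh1l1, an enzyme of folate metabolism, 1.20-fold (adjusted p = 0.0231), while Gstt1 was 1.17-fold lower (adjusted p = 0.0404). The calls of Gstt1, Ces2e and Aldh1l1 were lost under 16, 9 and 7 of 26 alternatives and that of Cyp2c68 under none, and those of Sult5a1 and Ces1c under 15 and 8 of 25.

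**Figure D4:**
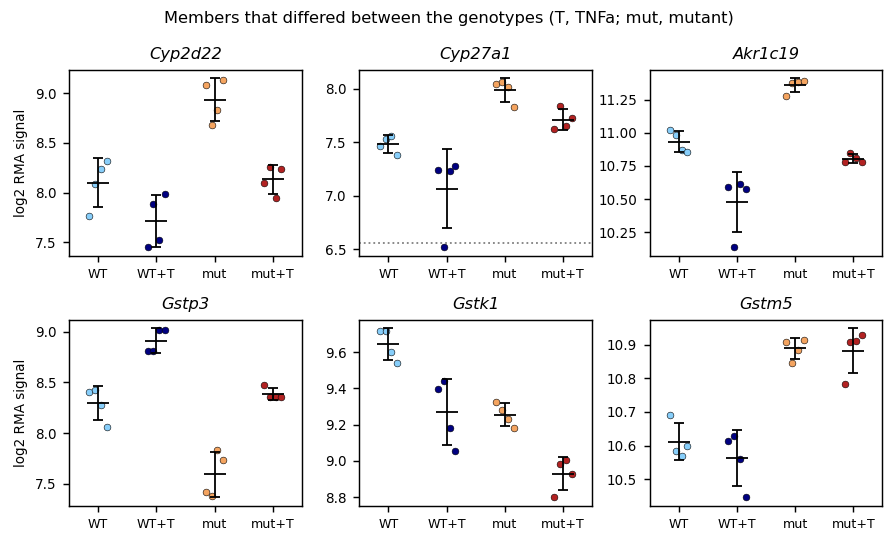
Log2 RMA signal on each array (y axis) of 6 members that differed between the genotypes, in the 4 groups, with points for arrays and bars for the mean ± SD of 4. Mutant points of Cyp27a1 and Gstm5 lie above the WT points of the same treatment, and those of Gstp3 and Gstk1 lie below them.

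The other genes of these pathways were read from 5 lists, whose counts stand against the 5.75% of all genes that fell and 5.03% that rose in WT, and 2.47% and 3.51% in mutant. Of 24 tested receptors and partners that sense foreign compounds and bile acids, 7 (29.2%) fell in WT and none rose: Nr1i2, Nr1i3, Nr1h4, Pparg, Hnf4g, Nr3c1 and Ppargc1a. In mutant 3 (12.5%) fell, Nr1i3, Nr1h4 and Ppargc1a. Their median change was -0.14 in WT and -0.03 in mutant. Nr1i3, which codes for CAR, fell from a mean of 8.74 ± 0.23 (SD) to 7.93 ± 0.25 in WT (-0.80 ± 0.12, SE, adjusted p = 0.000254). In mutant it fell from 8.72 ± 0.12 to 8.27 ± 0.13 (-0.45, adjusted p = 0.0337), a call lost under 8 of 26 alternatives. Nr1i2, which codes for PXR, fell by 0.27 in WT (adjusted p = 0.0154). The bile acid receptor FXR, Nr1h4, fell by 0.44 in WT and by 0.50 in mutant, and the coactivator Ppargc1a by 0.61 and 0.36. Of 6 tested genes that pass electrons to P450 enzymes, none was called in any comparison.

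Of 28 other drug-metabolising enzymes tested, 9 (32.1%) fell in WT and 6 (21.4%) in mutant, with medians of -0.15 and -0.16, and none rose. Ugdh, which makes the UDP-glucuronic acid that glucuronosyltransferases use, fell 1.56-fold in each genotype (adjusted p = 4.41e-05 in WT and 6.05e-05 in mutant). Cbr3, a carbonyl reductase, fell 1.49-fold in WT and 1.27-fold in mutant. The microsomal glutathione transferase Mgst1 fell 1.48-fold and 1.37-fold, and was also lower in mutant than in WT, 1.56-fold without TNFa (adjusted p = 0.000106) and 1.44-fold with it (adjusted p = 0.000789). Of 19 transporters tested, 3 rose in each genotype, the efflux pumps Abcc1 and Abcc4 and the bile acid transporter subunit Slc51b, and 1 fell, Slc22a18. These are 15.8% and 5.26% of the list, the latter near the share of all genes that fell in WT. The Abcc1 call in WT was lost under 7 of 26 alternatives, and the Slc22a18 call under 1 in WT and 14 in mutant (adjusted p = 0.0446 there). Abcc4 rose 1.64-fold in WT and 1.46-fold in mutant.

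Of 32 steroid and retinoid enzymes and carriers outside the families, 10 (31.3%) fell and 2 (6.25%) rose in WT, and 8 (25%) fell and 2 rose in mutant, with medians of -0.10 and -0.11. Hsd11b2, which inactivates glucocorticoids, fell 2.15-fold in WT (adjusted p = 4.51e-05) and 1.59-fold in mutant (adjusted p = 0.00681). Rbp2, which carries retinol in the gut, fell by 0.74 in WT and by 0.67 in mutant, and Retsat, which saturates retinol, by 0.45 and 0.36. Rdh10, which makes the retinal that the Aldh1a enzymes use, rose by 0.74 in WT and by 0.76 in mutant. Between the genotypes, the steroid dehydrogenase genes Hsd3b3 and Hsd3b2, close copies that may share signal, were lower in mutant, Hsd3b3 by 2.85-fold without TNFa (adjusted p = 4.76e-06) and 2.07-fold with TNFa (adjusted p = 0.000212).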

How the data were processed

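Signal was read on Affymetrix arrays from 3' labelled RNA amplified from small inputs, per the labels' protocols. The authors deposited log2 signals per probe set made by RMA in Affymetrix Expression Console, per the submitters' processing notes; versions and annotation are not given in the sources used here. RMA subtracts background, quantile normalizes and summarises probes, so a change shared by most genes would be removed and dim values are compressed. The number of arrays, 4 a group, limits the precision.

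Of 19825 probe sets, 18851 had 1 gene symbol in the platform annotation and 974 had none. The brightest probe set stood for each gene. A gene was tested when it lay above the array's 40th percentile on at least 4 of 16 arrays (11766 genes). All 4 groups entered 1 limma fit (R 4.3.3, limma 3.58.1, eBayes) with no covariate. The 5 comparisons were TNFa in WT, TNFa in mutant, mutant against WT in each treatment state, and how far the TNFa effects of the 2 genotypes differed. P-values were adjusted by Benjamini-Hochberg over all tested genes, with calls at an adjusted p under 0.05. The treatment protocol is attached to all samples, and only samples whose title names TNFa were taken as treated.

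Named genes were 5 markers, up to 10 called members each way per comparison, the 2 members of highest mean signal in each family, and up to 3 called genes of each pathway list per comparison. Others were named after their values were seen: Cyp3a13, Gstm1, Gsta2, Aldh1a7, the runs of neighbours, the members of each overlap and other list genes. The members and lists were chosen with earlier results of these data known. On simulated data with 200 changed genes, the fit recovered 72.5% of changes of 0.5 log2 for TNFa in WT and 28% of changes of 0.3. For the difference of TNFa effects it recovered 52% and 8%. Same-numbered samples of different groups did not deviate together (3 of 16 pairs correlated above 0.1, range -0.31 to 0.25), so no block was used. No 2 arrays held identical values. Promoter letters came from RefSeq, with the first start listed for each gene. Alternatives covered the filter, the normalization, the probe set rule, the variance model, array weights, the arrays in the fit, the threshold, the block and each array left out; a count over members above the percentile on all arrays was added after seeing the data.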

Additional observations from a re-analysis of the deposited data

Results flagged for a closer look

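Among 252 groups of 4 arrays, over 63 named genes, 19 held an array whose gap to its nearest neighbour passed Dixon's 95% limit for its share of the group's range, where chance flags about 1 in 20. The second WT array with TNFa accounted for 6: it was low for Cyp2c55 (11.54), Cyp27a1 (6.52), Akr1c19 (10.14) and Gstm2 (8.65) and high for Gstm6 (7.83) and Rbp2 (7.32). In mutant with TNFa, Cyp2b10 was high on the fourth array (6.22), as was Pon3, a lactonase (10.65). In the same group Gstp3 was high (8.47) and Gstm5 low (10.78) on the first array, Sult1d1 was high (10.63) and Rdh10 low (10.12) on the second, and Gstm2 was high (9.07) and Slc10a2, the ileal bile acid transporter, low (9.99) on the third. In untreated mutant, Akr1c19 was low (11.28) and Nr1i3 high (8.90) on the first array, and Gstm6 was high (8.04) on the second. In untreated WT, Ces2a was low on the first array (10.45) and Nr1h4 high on the second (9.31).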

How the results depend on the processing

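No called member changed sign under any alternative that gave it a value (up to 26), nor did a called effect of the other named genes. Of the 46 called TNFa effects of named genes in WT, 41 were never lost, and of 41 in mutant 33 were not. Of 17 and 16 genotype effects without and with TNFa, 10 and 8 were never lost. Some named genes that were not called became calls under at least 1 alternative. These were 8 of 17 for TNFa in WT and 5 of 22 in mutant. For genotype they were 7 of 46 without TNFa and 8 of 47 with it. The count of members called with TNFa was 51 in WT (46 to 57 with 1 array left out) and 43 in mutant (36 to 47). For genotype it was 10 without TNFa (5 to 15) and 9 with TNFa (4 to 12), and the difference of TNFa effects stayed at 0 in each of its 25 alternatives (12 at an unadjusted p under 0.05 in limma). Requiring a 1.5-fold change left 26, 16, 2 and 2 calls in that order, against 2.22%, 1.62%, 0.79% and 0.96% of all genes. The filter at the 60th percentile moved the median change to -0.38 in WT and -0.27 in mutant. For genotype without TNFa, the fit with no filter called 6 of 194 members (1.25% of all genes were called) and array weights 16. For genotype with TNFa, no filter called 4 of 194 (1.28% of all genes were called). Trend and robust fitting called 15 there, array weights 17 and a fit of the groups compared alone 3. The cause of these shifts was not tested, beyond the fewer arrays or other genes each fit holds. No label says what the shared replicate numbers stand for; the replicate block gave 48, 39, 8 and 5 calls; for 3 of 16 pairs the same-numbered sample was the best match. Each member has 1 probe set, so the probe set rules change nothing but the other genes. Signal near background limits what dim members can show. When all genes were tested, 5 (5.43%) of the 92 left out were called in WT and 4 (4.35%) in mutant. Of all genes, 5.11% and 2.96% were called in that fit.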
